A study of Mus musculus with 9 samples.

Results

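Gene expression was compared between sorted neural crest cells of a Mef2c neural crest conditional mutant and sorted wild-type neural crest cells, after culture of both with the peptide endothelin-1 (ET-1). The comparison took in 12433 of the 33495 gene rows of the table, or 37.1%. These were the genes with an FPKM value in both groups (sequenced fragments per kilobase of gene model, relative to the depth of the group) that reached 1 FPKM in either group and were not named as pseudogenes (-ps), clone models or Hist genes. The values of the comparison entered this choice through the floor of 1 FPKM and the need for FPKM in both groups. For mutant values that rested on no reads, the authors' p entered too. The series held 9 mouse samples in 3 groups of 3, and 6 samples belonged to these 2 groups.

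All embryos were of strain C57BL/6 at E9.5. Each head was pinched off above the first pharyngeal arch and the tail was removed, and the remaining explant recovered for 1 h before 10 µM ET-1 was added. Culture then went on for 12 to 15 h, and neural crest cells carrying a genetic label were sorted from explants whose heart still beat. The wild-type group with ET-1 and the mutant group with ET-1 thus differed in genotype, and a group of wild-type explants given PBS, the vehicle, supplied the level without ET-1. No PBS-treated mutant was analysed here, so a difference that preceded ET-1 and a different response to ET-1 cannot be told apart. The sources used here do not give the Cre driver, the Mef2c allele, the lineage label or the number of embryos in a sample.

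Neural crest cells migrate out of the dorsal neural tube and form much of the facial skeleton, the neurons and glia of the peripheral nervous system, and pigment cells. ET-1 acts on crest cells of the pharyngeal arches through the endothelin A receptor, a receptor coupled to Gq proteins, and patterns the lower jaw. MEF2 proteins are MADS-box transcription factors that bind an A/T-rich motif. Class IIa histone deacetylases hold MEF2 proteins in a repressive state, and calcium and kinase signals that move these deacetylases out of the nucleus release it. SRF, another MADS-box factor, binds the CArG box and drives immediate early and actin genes.

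The table held a single FPKM value per group that the authors had computed, so each level below is the authors' group value and carries no SD. The p-values are the authors' own for mutant against wild type, adjusted here by the Benjamini-Hochberg method over all 15459 genes that had FPKM in the 2 groups and reached 1 FPKM in one of them. A gene is called higher or lower at an adjusted p under 0.05. Where an adjusted p is credited to the authors' deposited table, only the unadjusted p behind it is theirs. The adjustment and the calls were made here and are not in that table. Whether the 3 samples of each group were taken from different embryos is not given, so these p-values measure at most the spread between samples, which may be technical. Pooled reads recovered from the FPKM values came to 19801230 in wild type with ET-1, 46930101 in the mutant and 21507319 in wild type with PBS. The mutant group was therefore 2.37 times as deep as its wild-type group. The fold intervals below are exact Clopper-Pearson 95% intervals from these reads and cover counting error only.

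The sorted cells carried the crest transcription factor genes Sox10 (61.0 FPKM in wild type with ET-1, 70.9 FPKM in the mutant) and Tcfap2a (45.9 and 48.1 FPKM). Foxd3, a crest specifier, stood at 15.3 and 14.0 FPKM, and the neurotrophin receptor gene Ngfr at 39.0 and 36.8 FPKM. Markers of arch mesenchyme were low, at 1.28 and 0.936 FPKM for Twist1, 0.458 and 0.408 FPKM for Prrx1 and 3.40 and 3.72 FPKM for Dlx2. Genes of the dorsal neural tube were well expressed in both groups: 10 of 15 listed genes passed the floor, and their summed level was 129 FPKM in wild type and 146 FPKM in the mutant. The summed level of 6 erythroid genes of 11 listed went from 33.5 to 18.4 FPKM, with 0 of them called, 1 at an unadjusted p under 0.05 in the authors' deposited table, and the erythroid regulator Gata1 at 0 in both. The listed markers of endothelium, epithelium, cardiac and skeletal muscle, mesoderm and plasma protein tissue stayed between 0.496 and 5.84 FPKM where they passed the floor. In bulk RNA, fewer cells of a type and less RNA per cell cannot be told apart.

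**Figure D1:**
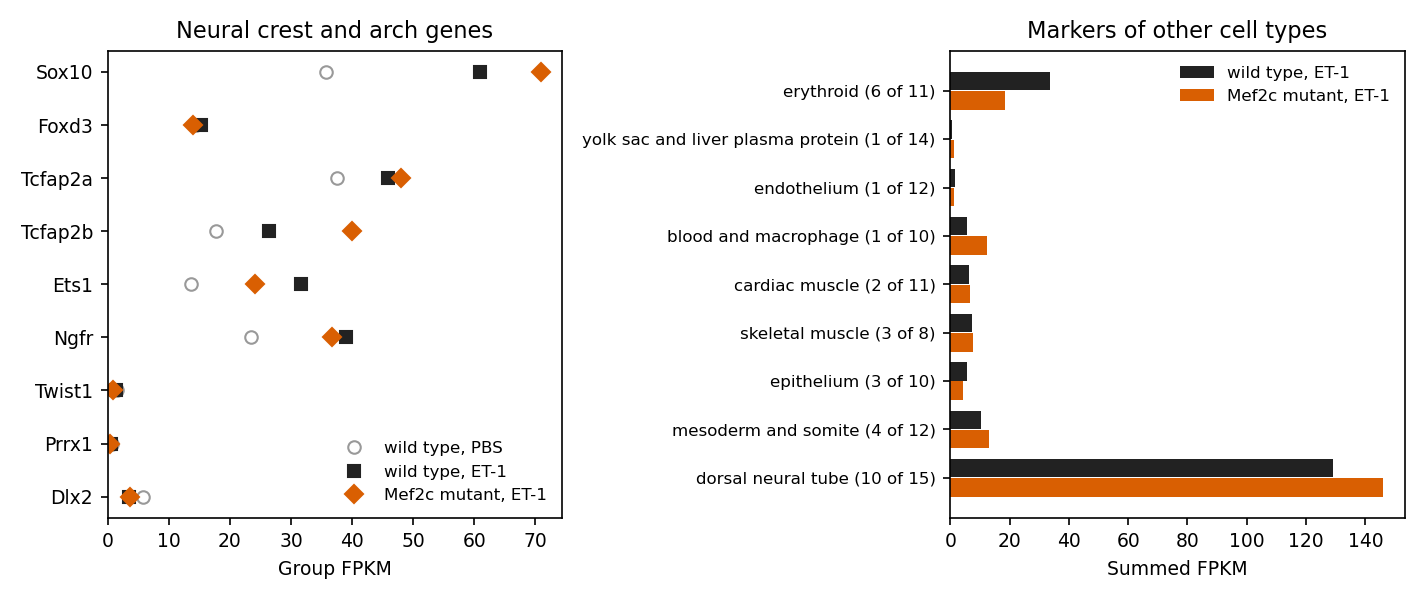
Left, group FPKM of 9 defining crest and arch genes in wild type with PBS (open circles), wild type with ET-1 (squares) and the mutant with ET-1 (diamonds). Right, FPKM summed over the listed markers of other cell types that passed the floor (numbers in brackets), where the dorsal neural tube list is the most abundant at 129 and 146 FPKM.

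Among the 12433 genes, 146 were higher in the mutant and 125 were lower. These are 1.17% and 1.01% of the genes compared. Over all 15459 genes tested the corresponding shares were 1.18% higher and 3.75% lower, or 4.94% in either direction. The share of higher genes was thus close to the background, and the share of lower genes was smaller because the names set aside held most of the lower calls: 399 of 2943 clone models, 49 of 62 Hist genes and 7 of 21 -ps names were lower, against 37, 0 and 0 higher. With p adjusted over the 12433 genes alone, 92 were higher and 81 were lower. The median log2 fold, taken as log2 of (FPKM + 1) in the mutant over that in wild type, was 0.06 over the 12433 genes and 0.05 over all genes tested. This scale understates the change of low genes, so plain FPKM ratios are given for single genes.

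Most called genes differed by less than 2-fold. The median FPKM ratio of the higher genes was 1.84, with a range of 1.39 to 14.2. For the lower genes it was 0.598 of wild type, with a range of 0.0593 to 0.781. The genes at the extremes, Artn and Tmem121, passed the floor of 1 FPKM only through the group where they were high. The same holds for the lower genes named below that stood under 1 FPKM in the mutant. Among them are Slc15a2, Ppargc1a, Hs3st1, Grik1, Serpina3h, Sv2b, S1pr3 and Col3a1. Such a choice favours large differences in either direction. A fold of at least 2 was reached by 56 of the higher and 48 of the lower genes, while 0.550% and 2.44% of all genes tested passed the same rule. Of the higher genes with an annotated biotype, 97.6% were protein coding, against 88.0% of the lower genes and 96.0% of those not called. The lower genes included 12 of the 23 processed pseudogenes among the genes compared.

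**Figure D2:**
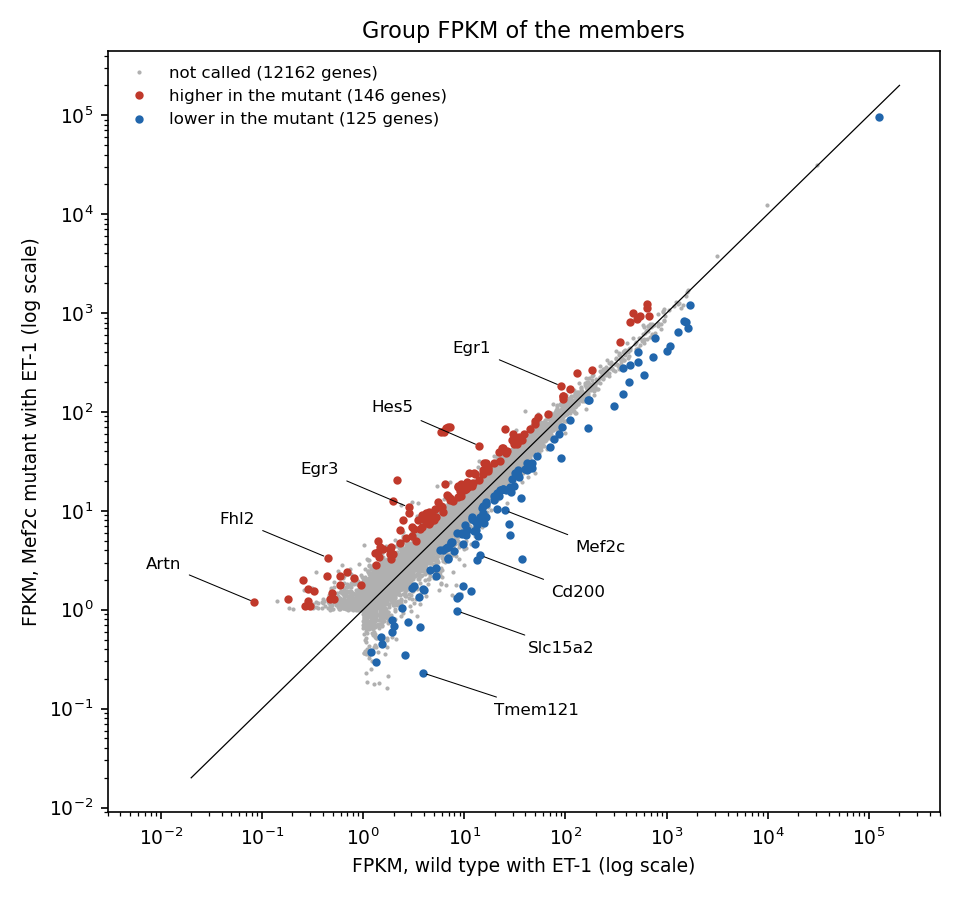
Group FPKM in wild type with ET-1 (horizontal) and in the mutant with ET-1 (vertical), both on log scales, for the 12433 genes, with the line of equal levels. The 146 higher and 125 lower genes lie closer to the line at high levels than at low levels, where Tmem121 (3.88 and 0.230 FPKM) and Artn (0.0840 and 1.20 FPKM) mark the extremes.

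Mef2c itself (ENSMUSG00000005583, mm9, chromosome 13, 83643194 to 83802927) was at 7.71 FPKM in wild type with PBS, 25.2 FPKM in ET-1-treated wild type and 10.1 FPKM in the ET-1-treated mutant. The mutant thus held 0.401 of the wild-type level (counting interval 0.389 to 0.414), with an adjusted p = 6.52e-11, adjusted here from the authors' deposited p. The value is summed over all exons, so a deleted exon cannot be seen in it, and some transcript remained in the sorted cells. Among the 56 other genes compared within 10 Mb of Mef2c, 0 were higher and 1 was lower. Of 12 genes for MEF2 factors, class IIa histone deacetylases and their partners, 0 were higher and 4 were lower (33.3% called). Over the genes compared 2.18% were called in either direction, and over all genes tested 4.94%. The 4 included Mef2c, the mutated gene itself, and the list median was -0.10 on the log2 scale.

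The other lower genes of this list were 1 further MEF2 factor, 1 deacetylase and 1 co-activator. Mef2d went from 16.2 to 11.8 FPKM, a ratio of 0.729 (interval 0.687 to 0.773) with an adjusted p = 0.0441 per the authors' deposited table. Hdac5, a class IIa deacetylase that binds MEF2 proteins, went from 11.8 to 8.27 FPKM (adjusted p = 0.0114, per the authors' deposited table). Ppargc1a, a co-activator of mitochondrial biogenesis, went from 2.03 to 0.688 FPKM, a ratio of 0.340 (interval 0.281 to 0.410, adjusted p = 4.49e-04, per the authors' deposited table), and stood at 0.936 FPKM with PBS. Mef2a, the MEF2 gene most abundant in the mutant, was at 16.7 FPKM in wild type and 20.6 FPKM in the mutant (adjusted p = 0.648, per the authors' deposited table). Hdac4 stood at 17.9 and 20 FPKM and was not called. Under the stricter Benjamini-Yekutieli adjustment 2 of the 4 lower calls remained, Mef2c and Ppargc1a.

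Among the lower genes with under 10% of their sequence words shared, Tmem121, Slc15a2 and Gadl1 had the lowest ratios. Tmem121, a transmembrane protein gene, was at 0.266 FPKM with PBS, 3.88 FPKM in ET-1-treated wild type and 0.230 FPKM in the mutant. Its ratio was 0.0593 (interval 0.0334 to 0.0989, from 121 and 17 reads), with an adjusted p = 7.62e-08 per the authors' deposited table, so the mutant with ET-1 lay at about the PBS level. Slc15a2, a peptide transporter, showed another pattern: 7.63 FPKM with PBS, 8.52 FPKM in ET-1-treated wild type and 0.972 FPKM in the mutant, a ratio of 0.114 (interval 0.101 to 0.129, adjusted p = 4.38e-27, per the authors' deposited table). Gadl1, an amino acid decarboxylase, was likewise near the same level in both wild-type groups, 14.1 and 11.8 FPKM, and at 1.54 FPKM in the mutant (adjusted p = 3.17e-18, per the authors' deposited table). Gclm, the modifier subunit of the enzyme that starts glutathione synthesis, was at 15.2, 12.7 and 4.65 FPKM in the same order (adjusted p = 1.74e-12, per the authors' deposited table). For these last 3 genes the mutant lay below both wild-type groups.

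In other lower genes the wild-type level with ET-1 stood above that with PBS. Cd200, an immunoglobulin-family surface protein, was at 6.32 FPKM with PBS, 14.4 FPKM in ET-1-treated wild type and 3.55 FPKM in the mutant, 0.246 of wild type (interval 0.224 to 0.271, adjusted p = 8.38e-13, per the authors' deposited table). Hs3st1, a heparan sulfate sulfotransferase, was at 0.375, 3.67 and 0.669 FPKM (adjusted p = 1.96e-05, per the authors' deposited table). Plxna4, a plexin that carries semaphorin signals, was at 2.01, 9.62 and 4.59 FPKM, and Grik1, a kainate receptor subunit, at 0.460, 2.76 and 0.750 FPKM. Both were lower in the mutant, with an adjusted p = 1.09e-09 and 3.53e-04 in the authors' deposited table. In all 4 genes the mutant value lay nearer to the PBS level than to the wild-type level with ET-1, and in Cd200 it lay below both.

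The authors' second table names 406 genes as induced by ET-1 and marks 73 of them as dependent on Mef2c. In that deposited table the dependence mark coincided with a p-value under 0.05 and a lower mutant value, for 73 of 73 marked genes and 0 of 333 unmarked genes, so the mark is not independent of the comparison described here. Both comparisons share the wild-type samples with ET-1. Of the 73, 55 were among the genes compared and 25 passed the adjusted test used here, with a median ratio of 0.623 over the 55. The 15 with the lowest ratios included Tmem121, Cd200, Hs3st1, Grik1, Ppargc1a and Mef2c as above. They also held Serpina3h, of a serine protease inhibitor family of near copies and annotated as a transcribed unprocessed pseudogene (2.60 to 0.352 FPKM, adjusted p = 1.41e-04, per the authors' deposited table). Sv2b, a synaptic vesicle protein, was another (1.20 to 0.377 FPKM, adjusted p = 0.0203, per the authors' deposited table). S1pr3, a sphingosine-1-phosphate receptor, went from 1.50 to 0.530 FPKM (adjusted p = 0.0395), and Rcan2, a calcineurin regulator, from 2.44 to 1.03 FPKM (adjusted p = 0.0390), both from the authors' deposited table. H2afy3 and Mdga2 belonged to the 15 but were not called, at 2.99 and 0.982 FPKM and at 2.98 and 1.40 FPKM in wild type and mutant. Those of the 15 under 1 FPKM in the mutant passed the floor only through wild type, a choice that favours low ratios.

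A MEF2 motif mark stood in the authors' deposited table for 79.5% of the 73 dependent genes and for 84.1% of the 333 others. Read the other way, 17.2% of the 338 induced genes with the mark and 22.1% of the 68 without it were marked as dependent. The share with a motif mark was thus no larger among the dependent genes, and the difference was not tested. Of the 296 induced genes without a dependence mark that were compared, 12 were higher in the mutant, 0 were lower and the median ratio was 1.01. The 0 follows from how the mark was set, and 6 of the 12 are rows of Gm7819 and Gm3893 that may hold the same reads. Nr4a3, Egr1, Heyl, Arc and Tcfap2b were among these 12, so their mutant levels lay above a level that the authors listed as induced. The authors' p for ET-1 against PBS, adjusted here by the Benjamini-Hochberg method, was 0.0133 for Nr4a3 and 0.0415 for Tcfap2b. For Egr1, Heyl and Arc it was 0.195, 0.846 and 0.974, so their induction did not pass the threshold used here.

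Immediate early genes, which receptor and kinase signals can induce quickly, were the list with the most higher genes. The cells had passed through explant culture and sorting, and the part of this handling in these values was not tested. Of 38 genes for immediate early factors and MAP kinase feedback, 9 were higher in the mutant and 0 were lower, or 23.7% called. Over the genes compared 2.18% were called and over all genes tested 4.94%, the shares to set beside each list below. The list median was 0.26 on the log2 scale, against 0.06 over the genes compared. The higher genes were 3 EGR zinc finger factors, 2 AP-1 members and Nr4a3, Klf4, Dusp5 and Arc, and 29 of 38 log2 folds were positive. Of the 9 calls, 6 remained under the Benjamini-Yekutieli adjustment.

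Egr1 was the most abundant of the higher factors, at 66.5 FPKM with PBS, 90.7 FPKM in ET-1-treated wild type and 183 FPKM in the mutant. Its ratio was 2.01 (interval 1.96 to 2.07) with an adjusted p = 6.09e-10 per the authors' deposited table. Egr3 showed the largest ratio of the list, 3.86 (interval 3.06 to 4.94), from 2.82 to 10.9 FPKM (adjusted p = 9.47e-06, per the authors' deposited table). Egr2, which also directs myelination in Schwann cells, went from 3.82 to 9.04 FPKM (adjusted p = 1.13e-04, per the authors' deposited table). With PBS, Egr3 and Egr2 stood at 3.22 and 3.37 FPKM, close to wild type with ET-1.

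Fos, an AP-1 subunit, was at 18.4 FPKM with PBS, 21.9 FPKM in ET-1-treated wild type and 39.2 FPKM in the mutant (adjusted p = 3.28e-04, per the authors' deposited table). Fosl2, its relative, went from 1.56 to 4.08 FPKM (adjusted p = 0.0341) and Arc, an activity-regulated cytoskeletal protein, from 1.88 to 4.27 FPKM (adjusted p = 0.0372), both from the authors' deposited table. Nr4a3, an orphan nuclear receptor, was at 3.77, 7.26 and 12.8 FPKM in PBS wild type, ET-1 wild type and mutant (adjusted p = 0.00123, per the authors' deposited table). Klf4, a zinc finger factor, was at 3.31, 1.45 and 4.35 FPKM (adjusted p = 0.00122), so the mutant lay nearer to PBS than to wild type with ET-1 in the authors' deposited table. Dusp5, a nuclear phosphatase that inactivates ERK, went from 5.19 to 10.3 FPKM (adjusted p = 0.0107, per the authors' deposited table), with 20.5% of its sequence words shared with other genes.

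Other members of the same families were not called. Nr4a1 stood at 10.4 FPKM in wild type and 9.14 FPKM in the mutant, and Nr4a2 at 3.04 and 1.54 FPKM (adjusted p = 0.848 and 0.0528, per the authors' deposited table). The ERK phosphatase gene Dusp6 stood at 31.6 and 40.7 FPKM, Dusp4 at 45.7 and 40.5 FPKM, and Spry4, a feedback inhibitor of receptor tyrosine kinases, at 5.42 and 3.52 FPKM. Jun and Fosb stood at 25.2 and 30.5 FPKM and at 21.8 and 28.5 FPKM. Within a family the members called higher were therefore accompanied by relatives with lower, equal or higher values that did not pass the test.

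SRF, CREB and Notch factors act through short motifs near the starts of such genes, and promoter sequences are shown for 4 higher genes, chosen because their windows held matches. Of the 13 called immediate early and Notch genes, 7 had an entry in the part of the RefSeq promoter table used here (build GRCm38.p6). The part left out is named below. For these 7 genes the 250 bases before the start were searched on both strands. Capitals mark the CArG box (named only, as it is degenerate), TGACG or its complement CGTCA (the core of the CREB site) and GTGGGAA or its complement TTCCCAC (the RBPJ site used by Notch). Egr2 is at chr10:67537680-67537929, Dusp5 at chr19:53528895-53529144, Fos at chr12:85473640-85473889 and Hes5 at chr4:154960673-154960922, all on the plus strand.
Egr2: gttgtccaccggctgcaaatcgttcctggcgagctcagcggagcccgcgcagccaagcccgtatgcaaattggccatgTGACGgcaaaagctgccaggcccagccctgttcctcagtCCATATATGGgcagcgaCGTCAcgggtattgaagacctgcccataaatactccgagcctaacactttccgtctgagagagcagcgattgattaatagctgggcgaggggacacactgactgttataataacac
Dusp5: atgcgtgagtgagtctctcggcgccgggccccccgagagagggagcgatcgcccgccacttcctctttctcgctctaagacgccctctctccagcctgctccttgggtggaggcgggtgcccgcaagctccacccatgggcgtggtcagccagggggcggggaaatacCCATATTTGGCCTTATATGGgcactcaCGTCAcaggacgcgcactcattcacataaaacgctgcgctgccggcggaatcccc
Fos: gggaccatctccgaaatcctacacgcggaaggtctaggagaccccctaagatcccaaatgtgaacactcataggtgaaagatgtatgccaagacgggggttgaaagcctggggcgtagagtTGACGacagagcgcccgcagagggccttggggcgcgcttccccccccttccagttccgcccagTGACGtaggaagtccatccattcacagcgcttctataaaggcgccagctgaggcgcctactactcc
Hes5: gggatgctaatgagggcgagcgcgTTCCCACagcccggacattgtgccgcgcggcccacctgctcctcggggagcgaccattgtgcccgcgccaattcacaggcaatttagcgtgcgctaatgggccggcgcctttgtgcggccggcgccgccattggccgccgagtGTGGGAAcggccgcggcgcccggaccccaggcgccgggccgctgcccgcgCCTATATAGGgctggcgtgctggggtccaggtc
The Egr2 window held a CArG box 133 bases before the start and TGACG on either strand at 172 and 116 bases, for the most downstream of the 5 starts listed, which was the one used. Dusp5 held adjoining CArG boxes at 82 and 72 bases and CGTCA at 55 bases. Fos held TGACG at 129 and 66 bases, and Hes5 held the RBPJ sequence at 226 and 83 bases and a CArG box at 33 bases, whose letters also hold TATATA. Of the 3 windows not shown, Nr4a3 held 4 matches to TGACG or its complement, Klf4 held 1 and Fosl2 held 0, and none of these windows held a CArG box or the RBPJ sequence.

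Among all 32851 promoter windows of the table, 1.47% held a CArG box, 17.8% TGACG, 5.42% GTGGGAA and 2.92% the MEF2 motif. The counts that follow use a single window per gene and, unlike the 32851 windows, leave out chromosome 18. On that chromosome 5 of the genes compared were higher, Egr1 among them, and 4 were lower. The count of 7 among the 13 immediate early and Notch genes above left out the same chromosome. Whether Egr1, one of the 13, has an entry was therefore not looked up. A CArG box stood in 6 of the 85 higher genes that had an entry (7.06%) and in 0 of the 75 lower genes, against 1.38% of 27025 genes. The 6 genes were Egr2, Dusp5, Hes5, Fhl2, Vcl and Ebf3. The MEF2 motif stood in 1 of 85 higher genes, Cldn1, and in 4 of 75 lower genes (5.33%), which were Hdac5, S1pr3, Pex26 and Gm4802, against 3.01% of all genes. TGACG stood in 36.5% of higher, 22.7% of lower and 17.5% of all genes. A match is a description of letters in this window, and sites farther away were not searched.

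Some Notch effector genes were higher in the mutant. Of 19 genes for Notch receptors, ligands, modifiers and targets, 4 were higher and 0 lower (21.1% called, list median 0.28), and all 4 belong to the HES and HEY families that Notch induces. The 4 calls remained under the Benjamini-Yekutieli adjustment. Hes5 was at 18.9 FPKM with PBS, 14.1 FPKM in ET-1-treated wild type and 45.4 FPKM in the mutant, a ratio of 3.23 (interval 2.93 to 3.57, adjusted p = 2.43e-14, per the authors' deposited table), with 21.8% of its sequence words shared. Hes1 was at 26.0, 29.4 and 52.3 FPKM (adjusted p = 8.24e-04), Hey1 at 19.3, 12.4 and 24.2 FPKM (adjusted p = 3.12e-04) and Heyl at 11.8, 15.8 and 30.3 FPKM (adjusted p = 1.83e-06), all from the authors' deposited table. In each of the 4 genes the mutant level lay above both wild-type groups.

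The genes that carry the Notch signal to these targets were not called. Notch1 stood at 16.9 FPKM in wild type and 21.5 FPKM in the mutant, the ligand gene Dll1 at 17.9 and 22.3 FPKM, and the DNA-binding partner Rbpj at 32.6 and 32.7 FPKM. Nrarp, a feedback target of Notch, stood at 14.9 and 21.3 FPKM (adjusted p = 0.234, per the authors' deposited table). Olig3, a progenitor factor of the dorsal neural tube, was higher in the mutant, from 23.9 to 43.2 FPKM (28.0 FPKM with PBS, adjusted p = 2.03e-04, per the authors' deposited table), while Sox2, Lmx1a and Gdf7 of the same marker list stood at 40.3 and 37.0, 12.1 and 11.9, and 23.2 and 20.7 FPKM. The summed level of that marker list was 129 FPKM in wild type and 146 FPKM in the mutant. Without Olig3, a choice made after seeing the data, the other 9 markers summed to 105 and 103 FPKM, with 4 above and 5 below their wild-type value. The part of neural tube cells in these differences was not tested.

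Among ligand pathways, BMP and WNT components contributed single genes. Of 19 BMP, ID and SMAD genes, 2 were higher and 0 lower (10.5% called, median 0.13): the type I receptor gene Bmpr1a, from 35.3 to 51.8 FPKM (adjusted p = 0.0144, per the authors' deposited table), and Id1, an HLH inhibitor induced by BMP, from 39.3 to 60.3 FPKM (adjusted p = 0.0470, per the authors' deposited table). Neither call remained under the Benjamini-Yekutieli adjustment, and Id2 and Id3 stood at 67.7 and 89.9 FPKM and at 81.7 and 109 FPKM without passing the test. Of 25 WNT pathway genes, 1 was higher, the secreted antagonist Frzb, from 2.29 to 6.36 FPKM (3.49 FPKM with PBS, adjusted p = 1.08e-04, per the authors' deposited table). The list median for WNT was 0.01, and it changed sign to -0.03 when folds were centred on the median of all tested genes.

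With the authors' deposited p-values and the Benjamini-Hochberg adjustment, 0 genes were called in the lists for TGF-beta (11 genes), hedgehog (9), retinoic acid (11), FGF (9), and endothelin and the ventral arch (12). The unadjusted p was under 0.05 in 1, 2, 3, 0 and 2 of them, in the same order. Over the genes compared 2.18% were called, and at that share lists of this size can hold 0 calls. The endothelin B receptor gene Ednrb, the most abundant of the last list, stood at 74.7 FPKM in wild type and 76.6 FPKM in the mutant, a ratio of 1.03 with a counting interval of 0.996 to 1.06. The endothelin A receptor gene Ednra stood at 3.85 and 4.88 FPKM (adjusted p = 0.830, per the authors' deposited table). Plcb1, a phospholipase downstream of Gq, stood at 2.10 and 1.19 FPKM (adjusted p = 0.0517), and Gbx2, a homeobox gene, at 4.73 and 8.95 FPKM (adjusted p = 0.0665), just outside the threshold in the authors' deposited table. The 13 dorsal and shared arch factors also held 0 called genes, with 1 at an unadjusted p under 0.05 in the authors' deposited table.

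Crest identity genes were mostly not called, with a pair higher and 1 lower among 21 specifiers (14.3% called, median 0.20). Tcfap2b, an AP-2 factor of early crest and sympathetic neurons, was at 17.7 FPKM with PBS, 26.4 FPKM in ET-1-treated wild type and 40.0 FPKM in the mutant, a ratio of 1.52 (interval 1.46 to 1.58, adjusted p = 0.00499, per the authors' deposited table). Itga4, the integrin subunit of fibronectin binding in migrating crest, was at 5.37, 3.63 and 6.55 FPKM (adjusted p = 3.36e-04, per the authors' deposited table). Ets1, an ETS factor of cranial and cardiac crest, was lower, at 13.6, 31.7 and 24.1 FPKM (adjusted p = 0.0372, per the authors' deposited table). Sox10 stood at 61.0 and 70.9 FPKM in wild type with ET-1 and in the mutant, with an adjusted p = 0.865 per the authors' deposited table. Under the Benjamini-Yekutieli adjustment 1 of the 3 calls remained, Itga4.

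Glial and melanoblast genes moved in different directions. Of 14, 1 was higher, Egr2 as above, and 2 were lower (21.4% called, median 0.04, or -0.01 when centred on all tested genes). Kit, the stem cell factor receptor of melanoblasts, went from 15.2 to 9.51 FPKM, with 12.9 FPKM for PBS, a ratio of 0.626 (interval 0.600 to 0.654, adjusted p = 5.87e-04, per the authors' deposited table). Cdh19, a cadherin of Schwann cell precursors, was at 2.12 FPKM with PBS, 5.29 FPKM in ET-1-treated wild type and 2.67 FPKM in the mutant (adjusted p = 0.0184, per the authors' deposited table). Erbb3, the neuregulin receptor of the glial lineage, stood at 31.7 and 29.2 FPKM and Mitf, the melanocyte master factor, at 2.00 and 1.45 FPKM, neither of them called.

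Of 23 sensory neurogenesis genes, 3 were higher and 0 lower (13.0% called, median 0.22). Prdm12, a regulator of pain-sensing neurons, was at 5.90 FPKM with PBS, 6.40 FPKM in ET-1-treated wild type and 18.6 FPKM in the mutant, a ratio of 2.91 (interval 2.58 to 3.28, adjusted p = 1.84e-08, per the authors' deposited table). Neurod4, a proneural bHLH factor, was at 13.6, 9.15 and 15.8 FPKM (adjusted p = 0.00828), and Dcx, the microtubule protein doublecortin of young neurons, at 8.17, 4.69 and 8.77 FPKM (adjusted p = 2.05e-05), both from the authors' deposited table. For Neurod4 and Dcx the mutant level was close to that with PBS. The proneural factors Neurog1 and Neurog2 stood at 21.8 and 24.6 FPKM and at 23.3 and 22.1 FPKM, and the sensory factor Pou4f1 at 11.6 and 13.4 FPKM, none called. Among 8 sympathetic and enteric genes 0 were called, with 2 at an unadjusted p under 0.05 in the authors' deposited table and a median of 0.32.

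Further called genes of neural progenitors and neurons lay outside the lists and were chosen after their values were seen. They were Ebf3, a helix-loop-helix factor of early neurons (8.71 to 13.8 FPKM), Nes, the progenitor filament nestin (26.1 to 38.2 FPKM), Nefm, a neurofilament subunit (17.2 to 26.2 FPKM), and Srrm4, a neural splicing regulator (9.90 to 16.2 FPKM). Unc13c, a synaptic priming protein, went from 0.325 to 1.54 FPKM, a ratio of 4.75 (interval 3.58 to 6.44, adjusted p = 5.16e-06, per the authors' deposited table). With PBS these 5 genes stood at 12.6, 23.9, 23.6, 13.5 and 0.656 FPKM. For all but Nes the PBS level lay between the level with ET-1 in wild type and that in the mutant. The full list of dorsal neural tube markers summed to 129 FPKM in ET-1-treated wild type and to 146 FPKM in the mutant. Without Olig3, its only called gene and one set aside after seeing the data, the sums were 105 and 103 FPKM. The part of neural tube cells in the values of these 5 neural genes was not tested.

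Actin and contractile genes of the SRF type leaned upwards, with 23 of 25 log2 folds positive and a median of 0.21. The median over the genes compared was 0.06, and the share of positive folds among them was not counted. Only 2 of 25 were called (8.00%), both higher. Vcl, the adhesion protein vinculin, was at 29.1 FPKM with PBS, 31.8 FPKM in ET-1-treated wild type and 52.3 FPKM in the mutant (adjusted p = 8.21e-04, per the authors' deposited table), with 25.1% of its sequence words shared. Fhl2, a LIM domain co-factor of SRF, went from 0.446 to 3.36 FPKM, a ratio of 7.53 (interval 4.32 to 14.4, from 13 and 232 reads, adjusted p = 0.00125, per the authors' deposited table). Srf itself stood at 19.6 and 28.0 FPKM (adjusted p = 0.173), and Actb, the most abundant of the list, at 689 and 774 FPKM (adjusted p = 0.918), per the authors' deposited table. Cytoskeletal genes outside the list that were called higher included Wdr1, an actin disassembly factor (15.4 to 25.6 FPKM), Cap1, an actin-recycling protein (23.8 to 43.2 FPKM), Tgfb1i1, a focal adhesion protein (7.27 to 13.3 FPKM), and Nedd9, a docking protein of focal adhesions (50.4 to 80.6 FPKM), all chosen after their values were seen. The 8 YAP and CCN targets held 0 called genes and 0 at an unadjusted p under 0.05 in the authors' deposited table, with Cyr61 at 55.6 and 58.4 FPKM.

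Adhesion genes held higher calls, most of them in neural adhesion molecules and integrins. Of 26 integrin and adhesion genes, 5 were higher and 1, Cdh19, lower (23.1% called, median 0.20). Besides Itga4, Itga9, another integrin subunit, went from 9.27 to 14.1 FPKM (adjusted p = 0.0261), and Chl1, an L1-family neural adhesion molecule, from 4.58 to 7.68 FPKM (adjusted p = 0.00897), in the authors' deposited table. Cntn2, a contactin of young axons, went from 6.15 to 9.77 FPKM (adjusted p = 0.00911) and Pcdh19, a protocadherin, from 1.89 to 3.24 FPKM (adjusted p = 0.0448), also from the authors' deposited table. Under the Benjamini-Yekutieli adjustment 1 of these 5 higher calls remained, Itga4. Cdh11, a mesenchymal cadherin, stood just outside at 17.5 and 25.8 FPKM (adjusted p = 0.0513, per the authors' deposited table).

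Of 13 collagen genes, 2 were lower and 0 higher (15.4% called, median -0.05). Col5a2, a fibril-forming collagen chain, was at 5.75 FPKM with PBS, 6.88 FPKM in ET-1-treated wild type and 3.23 FPKM in the mutant, a ratio of 0.470 (interval 0.436 to 0.507, adjusted p = 7.56e-08, per the authors' deposited table). Col3a1, another fibril chain, was at 1.96, 1.94 and 0.781 FPKM (adjusted p = 7.23e-04, per the authors' deposited table). Of 34 matrix proteins and proteases, 2 were lower (5.88% called). Adam12, a membrane metalloprotease, was at 6.29, 15.6 and 7.49 FPKM in PBS wild type, ET-1 wild type and mutant (ratio 0.480, interval 0.455 to 0.507, adjusted p = 2.20e-10, per the authors' deposited table), and Cd44, the hyaluronan receptor, at 2.89, 3.21 and 1.73 FPKM (adjusted p = 0.0113, per the authors' deposited table). Fibronectin (Fn1) stood at 59.4 and 60.2 FPKM and the cartilage collagen gene Col2a1 at 26.6 and 25.7 FPKM, neither called.

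The remaining surface and transport lists had between 5.00% and 8.33% of their genes called, against 2.18% of the genes compared and 4.94% of all genes tested. Of 40 guidance genes, 1 was higher and 1 lower (5.00% called). The higher gene was the semaphorin and VEGF co-receptor gene Nrp1 (15.5 to 23.7 FPKM, adjusted p = 0.0372, per the authors' deposited table), and the lower gene was Plxna4. Of 24 receptor and channel genes, 1 was higher and 1, Grik1, lower (8.33% called). The higher gene was the ATP-gated channel gene P2rx5, from 0.253 to 2.02 FPKM on 12 and 227 reads (ratio 7.98, interval 4.48 to 15.7, adjusted p = 0.00113, per the authors' deposited table). Of 19 amino acid and peptide transporters, Slc15a2 was the only call (5.26%), and Slc38a2, the most abundant, stood at 108 and 118 FPKM. Artn, a ligand of the RET receptor complex, had the largest ratio of all higher genes, 14.2, from 0.0840 to 1.20 FPKM (adjusted p = 0.00652, per the authors' deposited table), on 4 and 135 reads with an interval of 5.43 to 53. Artn stood at 0.773 FPKM with PBS, nearer to the mutant. Like P2rx5, Fhl2 and Unc13c, Artn passed the floor of 1 FPKM only through the mutant, the deeper group. The choice of genes thus favours a large ratio for these genes.

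**Figure D3:**
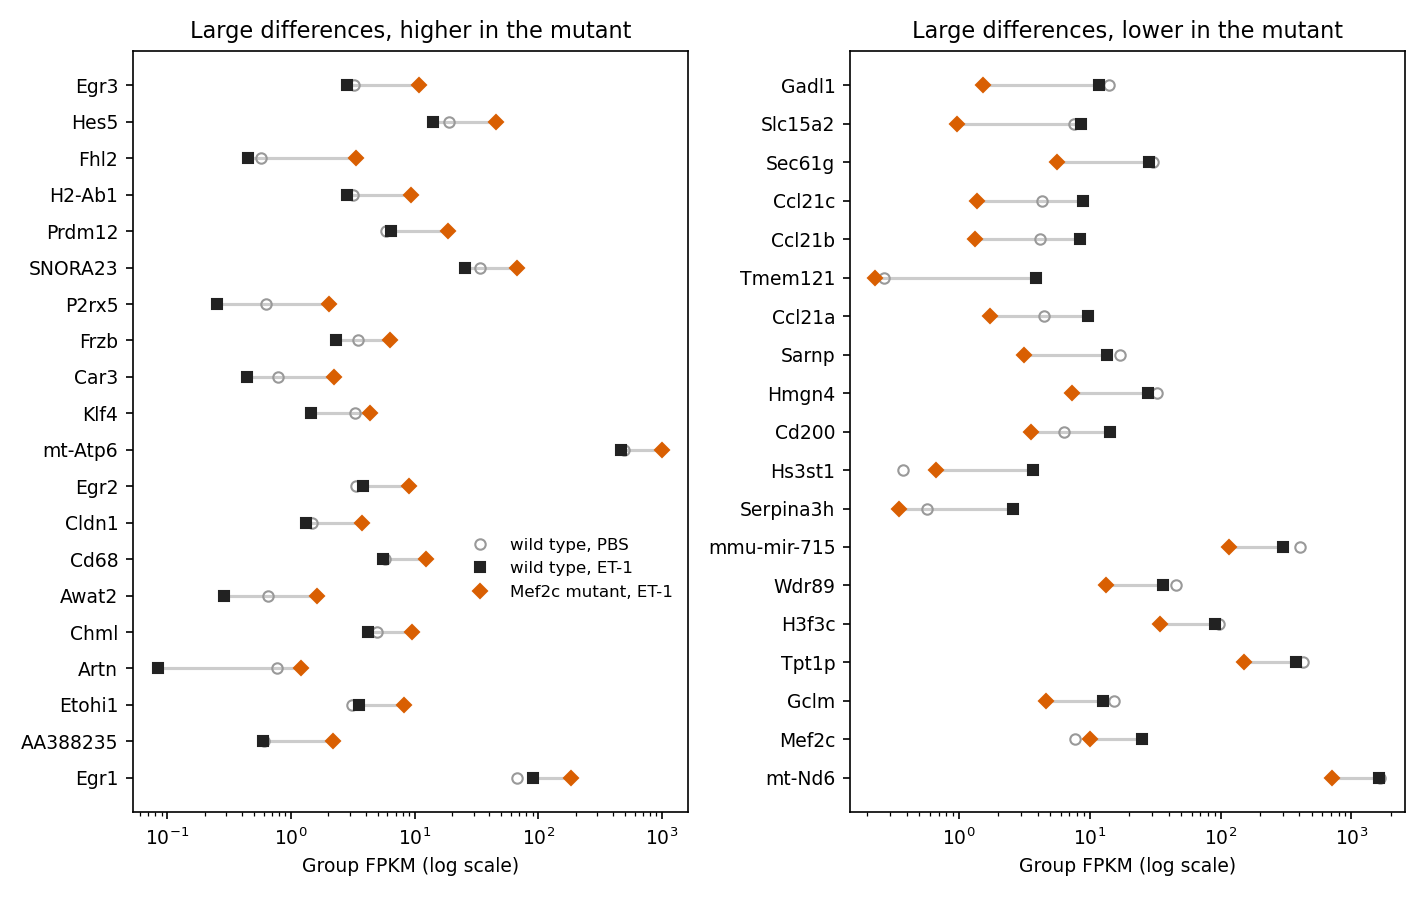
Group FPKM (log scale) of genes among the 20 with the largest log2((FPKM + 1) ratio) in each direction, without Gm and Rik names, in wild type with PBS (open circles), wild type with ET-1 (squares) and the mutant with ET-1 (diamonds). Among the lower genes Tmem121 has its PBS circle at 0.266 FPKM near the mutant at 0.230 FPKM, while Slc15a2 and Gadl1 have it near wild type with ET-1.

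Hypoxia and glycolysis genes were the list with the most lower calls. Of 31, 0 were higher and 7 lower (22.6% called), the list median was -0.23 and 3 of 31 log2 folds were positive. Bnip3, a mitophagy protein induced by hypoxia, went from 45.1 to 30.1 FPKM (ratio 0.667, interval 0.631 to 0.706, adjusted p = 0.00305, per the authors' deposited table), with 47.2% of its sequence words shared with other genes. Ddit4, an mTOR inhibitor, went from 42.9 to 26.4 FPKM (adjusted p = 8.44e-04), and Slc2a3, a neuronal glucose transporter, from 85.7 to 59.5 FPKM (adjusted p = 8.68e-04), both from the authors' deposited table. P4ha1, a collagen prolyl hydroxylase subunit, went from 29.8 to 21 FPKM (adjusted p = 0.00837, per the authors' deposited table). With PBS these genes stood at 55.7, 48.2, 71.8 and 31.6 FPKM, so the mutant lay below both wild-type groups in each.

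The other lower calls of that list were smaller. Pdk1, the kinase that shuts pyruvate dehydrogenase, went from 15.2 to 11.2 FPKM (adjusted p = 0.0354), Pgam1, phosphoglycerate mutase, from 522 to 405 FPKM (adjusted p = 0.0268), and Pfkl, liver phosphofructokinase, from 32.2 to 24.3 FPKM (adjusted p = 0.0479), all from the authors' deposited table. Of the 7 calls, 3 remained under the Benjamini-Yekutieli adjustment. Gapdh, the most abundant, stood at 1391 and 1121 FPKM (adjusted p = 0.0616, per the authors' deposited table), Pgk1 at 309 and 256 FPKM and the classic hypoxia target Vegfa at 38.6 and 35.8 FPKM. Car9, another hypoxia target, stood at 1.67 and 2.52 FPKM. The erythroid markers summed to 33.5 and 18.4 FPKM in these groups, with 0 called, and their part was not tested.

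Glucose and glycogen genes outside the list were also among the lower calls, and were chosen after their values were seen. Slc2a4, the insulin-responsive glucose transporter, was at 4.23 FPKM with PBS, 6.86 FPKM in ET-1-treated wild type and 3.35 FPKM in the mutant (adjusted p = 0.00469, per the authors' deposited table). Ppp1r3c, a glycogen-targeting phosphatase subunit, was at 6.62, 5.20 and 2.20 FPKM (ratio 0.423, interval 0.358 to 0.501, adjusted p = 0.00396, per the authors' deposited table). Pfkfb3, an activator of phosphofructokinase, went from 10.1 to 7.18 FPKM, Pgm2, a phosphoglucomutase, from 10.7 to 6.43 FPKM, and Galk1, galactokinase, from 34.2 to 23 FPKM. Transcription factors among the lower genes included Foxo1, which is inhibited by insulin signalling (7.50 to 4.80 FPKM, adjusted p = 0.0187), and the repressors Bhlhe40 (12.4 to 6.25 FPKM, adjusted p = 1.37e-04) and Nfil3 (16.6 to 8.70 FPKM, adjusted p = 6.89e-04), both of which act in the circadian clock, all from the authors' deposited table. Ccrn4l, the clock-controlled gene for nocturnin, went from 70.0 to 44.6 FPKM with an adjusted p = 2.61e-06 per the authors' deposited table.

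Lower calls outside the lists also held lysosomal and signalling genes, again chosen after their values were seen. Naglu, a lysosomal glycosidase, went from 3.99 to 1.59 FPKM, and Scarb2, a lysosomal membrane protein, from 22.1 to 14.0 FPKM. Gab1, a docking protein of receptor tyrosine kinases, was at 18.4 FPKM with PBS, 31.0 FPKM in ET-1-treated wild type and 17.9 FPKM in the mutant (adjusted p = 1.36e-06, per the authors' deposited table). Mtss1, a membrane-bending scaffold, was at 13.1, 28.7 and 15.6 FPKM (adjusted p = 2.47e-06, per the authors' deposited table), and Colec12, a scavenger receptor, at 4.33, 13.1 and 6.47 FPKM (adjusted p = 2.03e-05, per the authors' deposited table). Lbh, a transcriptional co-factor, was at 26.7, 46.4 and 30.2 FPKM (adjusted p = 3.00e-04, per the authors' deposited table). For Gab1, Mtss1, Colec12 and Lbh the mutant level lay nearer to PBS than to wild type with ET-1, and these 4 genes carry the authors' dependence mark. Atp2b4, a plasma membrane calcium pump, went from 3.92 to 1.60 FPKM (adjusted p = 6.23e-07, per the authors' deposited table) and had 3.01 FPKM with PBS.

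Most lists of general cell functions held 0 calls, and lists of this size can do so at the 2.18% called over the genes compared. With the authors' deposited p-values, adjusted here, 0 genes were called among 32 genes of DNA replication and mitosis (median 0.07, Ccnd2 at 114 and 117 FPKM), 22 of sterol synthesis and desaturation (median -0.02), 20 of p53 and BCL2 (median 0.10), 19 imprinted growth genes (median 0.01) and 24 of the respiratory chain and ATP synthase (median -0.07). At an unadjusted p under 0.05 the counts were 3, 0, 1, 4 and 1 in these lists, in the same order. Of 28 stress genes, 2 were higher, both of the endoplasmic reticulum: the chaperone gene Hspa5, from 112 to 169 FPKM (adjusted p = 0.00241), and its co-chaperone Dnajb9, from 9.99 to 18.5 FPKM (adjusted p = 0.0103), in the authors' deposited table. Of 27 ribosomal protein genes 1 was lower, Rplp1, from 770 to 557 FPKM (adjusted p = 0.00323, per the authors' deposited table), with 60.0% of its sequence words shared. Rps18 was no listed gene and was higher, from 436 to 803 FPKM, with 23.7% shared.

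Of 10 antigen presentation genes, 1 was higher and 1 lower. H2-Ab1, a class II chain, went from 2.83 to 9.40 FPKM (ratio 3.32, interval 2.77 to 4.02, adjusted p = 0.00124, per the authors' deposited table), and H2-K1, a class I chain, from 52.6 to 36.2 FPKM (adjusted p = 0.0107, per the authors' deposited table). Of its class II partners, H2-Eb1 stood at 1.55 and 0.489 FPKM and the invariant chain gene Cd74 at 0.679 and 1.03 FPKM, neither called. Cd68, a lysosomal protein of macrophages, was higher, from 5.54 to 12.4 FPKM (adjusted p = 0.0227, per the authors' deposited table), and was the only macrophage marker of 10 listed that passed the floor. Csf1r stood at 0.413 and 0.834 FPKM, and Ptprc, Fcgr3 and Tyrobp at 0 in both groups. The part of macrophages in the values of H2-Ab1 and Cd68 was not tested.

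**Figure D4:**
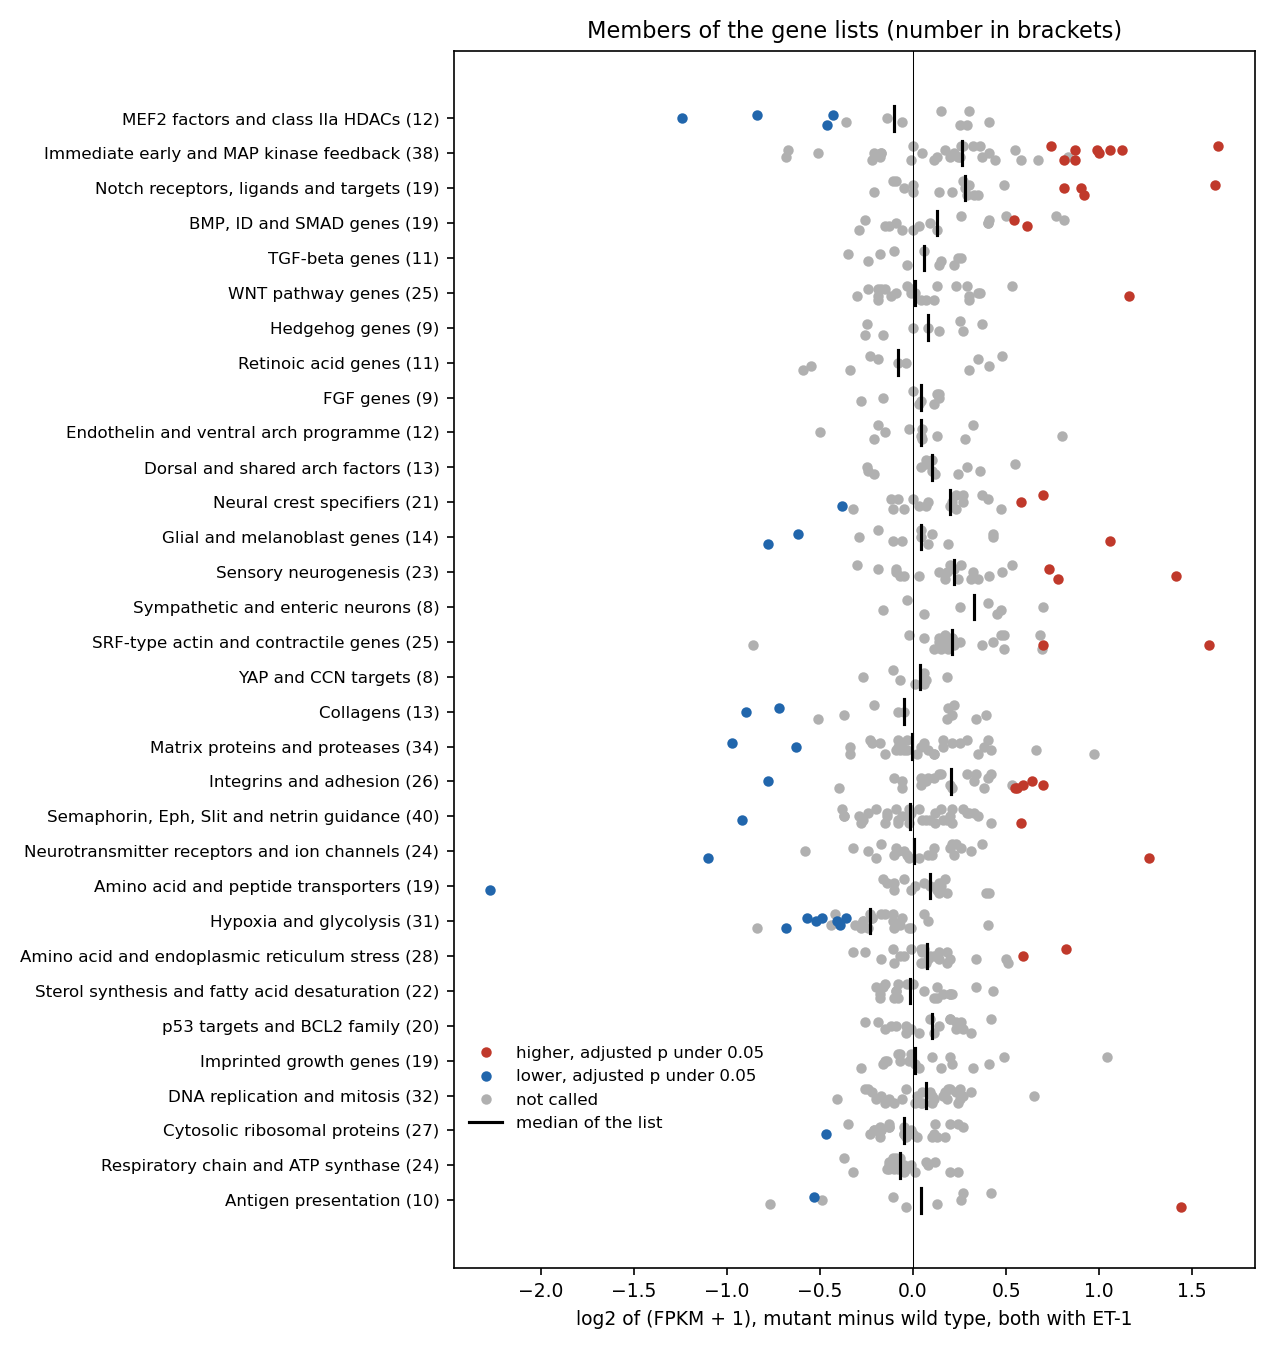
Log2 of (FPKM + 1) in the mutant minus that in wild type with ET-1 for each gene of 32 lists, with the number compared in brackets, called genes in red (higher) and blue (lower) and the list median as a bar. The immediate early list reaches 1.64 (Egr3) with 9 red points, and the hypoxia and glycolysis list holds 7 blue points with its median at -0.23.

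Transcripts of the mitochondrial genome changed in opposite directions. Of 14 genes placed on the mitochondrial chromosome, 5 were higher and 2 lower, the highest share of any chromosome, while other chromosomes ranged from 0 (Y, 4 genes) to 3.56% (chromosome 12). The 5 higher genes were mt-Atp6 (634 to 1239 FPKM), mt-Nd1 (642 to 1112 FPKM), mt-Co3 (505 to 871 FPKM), mt-Atp8 (541 to 928 FPKM) and mt-Cytb (668 to 930 FPKM). The lower genes were mt-Nd6, the only protein gene read from the opposite strand, from 1627 to 711 FPKM (ratio 0.437, interval 0.427 to 0.446, adjusted p = 2.90e-19, per the authors' deposited table), and mt-Nd5, from 1690 to 1199 FPKM (adjusted p = 4.41e-04, per the authors' deposited table), whose end it overlaps. The sources used here do not say whether reads were counted by strand, so reads of mt-Nd6 and of the transcript opposite to it cannot be told apart. A copy of mt-Atp6 listed on chromosome 1 was also higher, from 464 to 1004 FPKM, and mt-Atp6 and mt-Co3 shared 99.5% and 99.9% of their words with other sequences.

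Several of the largest differences lay in genes with near-identical copies, where the authors' counting could split reads between copies, and these values are uncertain. The chemokine copies Ccl21a, Ccl21b and Ccl21c went from 9.69 to 1.74, 8.48 to 1.32 and 8.96 to 1.37 FPKM. Hmgn4 (27.8 to 7.35 FPKM), Tpt1p (374 to 152 FPKM), Sarnp on chromosome 19 (13.5 to 3.16 FPKM) and H3f3c (90.2 to 34.6 FPKM) shared between 73.8% and 100% of their sequence words with other transcripts. Each of these rows has the annotated biotype of a processed pseudogene and not of a protein-coding gene. Of the called genes with a value, 4 of 127 higher and 19 of 117 lower genes shared at least 50% of their words, and 106 and 82 shared under 10%.

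The largest log2 folds of all were in predicted genes on chromosome 4. Gm7819 has 3 rows, which went from between 5.84 and 6.35 FPKM in wild type with ET-1 to between 62.6 and 64.7 FPKM in the mutant, with ratios of 10.1, 10.2 and 10.7. Gm3893 also has 3 rows, at 6.61 to 7.17 FPKM in wild type and 68.8 to 70.8 FPKM in the mutant. With PBS all 6 rows lay between 2.76 and 3.69 FPKM. The rows of a name carry nearly equal values and may hold the same reads, and they count as 6 of the 146 higher genes. In all, 18 of the higher and 13 of the lower genes had Gm or Rik names, among 935 such genes compared.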

How the data were processed

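RNA was extracted, amplified to cDNA and made into barcoded libraries with kits from Qiagen and NuGEN, per the labels' protocols. The submitters' processing notes name Cufflinks 1.3.0, TopHat 1.3.1, build mm9 and Cuffdiff. The sources used here give neither their settings nor the read length or the way samples were combined. The labels' protocols list 11 barcodes, and 2 of 3 codes beginning with EK carry a barcode that another code also has; which samples the codes stand for is not stated, and a part of sequencing runs in the results was not tested.

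Per the file headers, the authors deposited an FPKM value for each of 3 groups and not for each sample. The deposited p-values for ET-1 against PBS and for mutant against wild type are the authors' and were taken as unadjusted. A second table by the authors holds a normalized induction fold, also deposited, with MEF2 motif and dependence marks. In 15739 of 33495 rows whole numbers stood in place of FPKM and were left out, as were 2297 genes under 1 FPKM in both groups. A test on FPKM per sample was planned for the case that such values were given, and the authors' deposited p-values, adjusted here, took its place. The Benjamini-Hochberg adjustment and the recovery of reads were tested on simulated data.

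Pooled reads were recovered from the steps between FPKM values: 92.5% of 1317 single-exon genes in wild type and 92.8% of 1315 in the mutant (both with ET-1) came out whole within 0.02, and 97.6% of 16401 recovered lengths lay within 2-fold of GENCODE M21. A transcript of 1 kb at 1 FPKM rested on 19.8 and 46.9 reads in these groups. PCR copies are not independent molecules, so intervals cover counting error only. Shared sequence is the percentage of 50-base words of a gene's GENCODE M21 transcripts found in other genes. The median log2 fold uses a pseudocount of 1.

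The genes compared and the 41 gene lists were chosen with earlier results of these data known. Genes named in the text were Mef2c, the 20 largest log2 folds in each direction among called genes without Gm or Rik names, every called gene of a list, the most abundant uncalled gene of each list and the 15 induced and dependent genes with the lowest ratios. A few genes that this rule names are not reported here. Other genes are named from the lists as relatives, or are said to be chosen after their values were seen. There were 102 names used by more than 1 row among the genes compared, and rows were told apart by gene ID. The planned Mef2 protein sequences were not used here. Alternatives were another floor, another adjustment of p, other name rules, a fold minimum, a pseudocount of 0.1 and centring. Python 3.11.15, numpy 2.4.6, pandas 2.3.3 and scipy 1.17.1 were used.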

Additional observations from a re-analysis of the deposited data

Results flagged for a closer look

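In 1441 genes the mutant had an FPKM value while wild type with ET-1 had a whole number of at most 15 in its place, and such genes were outside the comparison above. Of these, 165 reached 1 FPKM in the mutant under names of the kinds compared, and 3 had an adjusted p under 0.05 computed from the authors' deposited table. These 3 are listed because the comparison did not use them. They were chosen for having FPKM in the mutant alone, so a value there is no evidence of a difference. A row of 4930466F19Rik, an uncharacterised transcript, had 16.2 FPKM in the mutant and the whole number 2 in wild type (adjusted p = 2.43e-06, per the authors' deposited table), and 2 other rows of the same name were called higher, from 1.96 to 12.6 FPKM and from 2.18 to 20.7 FPKM. Aass, an enzyme of lysine breakdown, had 1.03 FPKM in the mutant and the whole number 9 in wild type (adjusted p = 7.96e-04, per the authors' deposited table). Prg2, the eosinophil major basic protein gene, had 2.11 FPKM in the mutant and the whole number 1 in wild type (adjusted p = 0.0376, per the authors' deposited table). No fold is given for these genes, because the whole numbers are not on the FPKM scale. Pooled reads of the mutant were 2.37 times those of wild type with ET-1, and the part of depth in which rows hold FPKM was not tested.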

How the results depend on the processing

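The 146 higher and 125 lower genes became 135 and 117 with no floor on FPKM, 135 and 118 with a floor of 5 FPKM, 128 and 112 without Gm and Rik names, and 139 and 121 without short RNA and mitochondrial genes, the last chosen after seeing the data. They became 92 and 81 with p adjusted over the genes compared alone, 65 and 64 with the Benjamini-Yekutieli adjustment and 56 and 48 with a fold of at least 2. Without genes that share 10% or more of their sequence or have no value, also chosen after seeing the data, 106 and 82 remained, fewer by construction, as the adjusted p was kept. The adjustment over all 15459 genes tested differs from that over the genes compared alone only in taking in the names set aside. Of these names, 399 clone models, 49 Hist genes and 7 -ps names were lower, and 37 clone models were higher. The 146 and 125 thus depend on rows outside the genes compared. Of 87 named and called genes, 6 lost the call with no floor (Mef2d, Pfkl, Car3, Awat2, Id1 and Pcdh19), 18 when adjusted over the genes compared alone and 33 under Benjamini-Yekutieli, and 21 lay under the floor of 5 FPKM and were not tested. The median log2 fold of 0.06 was 0.07 with a pseudocount of 0.1 and 0.02 when centred on all tested genes, and the log2 fold of Mef2c of -1.24 was -1.31 and -1.28. No called gene among the 127 named genes changed sign under these 2 settings, 4 values of uncalled genes did, and 8 of 37 list medians did when centred, each between -0.04 and 0.05. Leaving out each replicate was not run, because the table holds group values. No paired analysis was possible because the groups share no sample numbers and the table holds 1 value per group. Depth limits low genes most, since 1 FPKM over 1 kb is 19.8 reads in wild type.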
